A study of Saccharomyces cerevisiae with 10 samples.

Results

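Chromosome IX of budding yeast was followed through the genes of the deposited table whose systematic names begin YI, in their order along the chromosome, with YIL on the left arm and YIR on the right arm. The table names 206 such genes. Ribosomal protein genes and 1 further gene, 7 in all, were left out, which gave 199 genes, 158 on the left arm and 41 on the right, of 5711 named genes. A value on at least 8 of the 10 arrays was required, and 145 of the 199 met this, 120 on the left arm and 25 on the right, of 5415 genes tested in the whole table. Of these 145, 133 had a value on all 10 arrays. The chromosome was selected on its median level across the lines in these same arrays, so that level is given as a description and carries no test.

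The study set 5 mutation-accumulation lines of Saccharomyces cerevisiae against one another, MA-A4, MA-A0, MA-A1, MA-A3 and MA-A8. Mutation accumulation means passage through repeated narrow bottlenecks, which lets mutations persist with little selection. Total RNA of a line in Cy5 was hybridised with that of another in Cy3 through a dendrimer labelling kit, once for each of the 10 pairs, so a line lay on 4 dual-colour arrays, 2 with each dye. The labels give no treatment, strain background, ploidy, growth condition or ancestor for any of the lines, and each line is a single lineage under its name alone. Whether a line's 4 hybridisations used separate cultures is not stated, so p-values measure the spread between hybridisations, and the number of arrays limits the precision.

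Values were read as log2 of the Cy5 line over the Cy3 line. The table states neither base nor direction, and if the ratios run the other way all signs below are inverted. Each array was centred on its median. A line's estimate for a gene comes from a linear model over all arrays and compares the line with the average of the other 4, so a low level in 1 line enters each of the other lines as a small positive value by construction.

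A chromosome's genes share little by function, since neighbours on it serve unrelated processes. Chromosome IX is known for the DAL cluster on its right arm, which lets the cell use allantoin as a nitrogen source, for FLO11, the flocculin of adhesive and invasive growth, and for SUC2, the invertase. In yeast the transcript level of most genes follows the number of copies of the chromosome that carries them. DNA was not measured here.

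The tested genes of chromosome IX mostly lay lower in MA-A4 than in the other lines on both arms, less evenly at the outer left end. Their median estimate in MA-A4 was -0.245, with the middle 50% of genes between -0.3525 and -0.155, and 131 of 145 (90.3%) lay below 0. If the base is 2, the median corresponds to 84.4% of the mean of the other 4 lines. The medians were 0.075 in MA-A0, 0.045 in MA-A1, 0.055 in MA-A3 and 0.0975 in MA-A8. On 12 other chromosomes, all nuclear ones but IX, XI, XII and XIII, the median in MA-A4 was 0.0375, and 38.1% of 4104 genes lay below 0. The spread of chromosome IX genes in MA-A4 was close to that of those genes, with interquartile ranges of 0.1975 and 0.1836, so the distribution was displaced without being much wider.

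**Figure D1:**
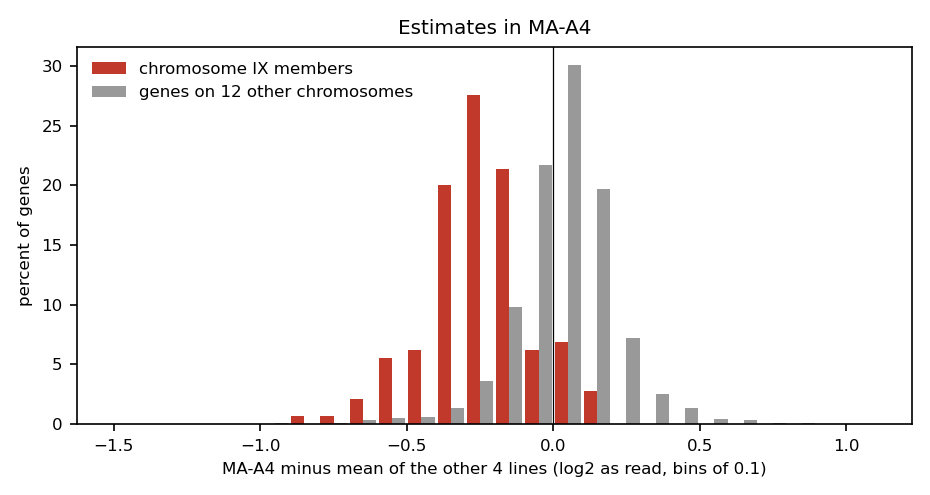
Percent of genes (vertical axis) in bins of 0.1 of the estimate in MA-A4, MA-A4 minus the mean of the other 4 lines on the log2 scale as read (horizontal axis), for 145 chromosome IX genes and 4104 genes on 12 other chromosomes. The chromosome IX bars centre near -0.245 and the others near 0.0375, and the highest chromosome IX gene lies at 0.192.

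Each of the 4 arrays that carried MA-A4 showed the low level. The median over chromosome IX genes of MA-A4 minus its partner was -0.21 against MA-A0, -0.28 against MA-A1, -0.26 against MA-A3 and -0.35 against MA-A8. MA-A4 was in Cy3 on the arrays with MA-A0 and MA-A1 and in Cy5 on those with MA-A3 and MA-A8, so the low level was seen in both dyes. On each of these arrays the chromosome IX median lay below the lowest of the 12 other chromosomes, whose medians ran from -0.11 to 0.065, from -0.065 to 0.09, from 0 to 0.17 and from -0.02 to 0.13 in the same order. On the 6 arrays without MA-A4 the chromosome IX medians ran from -0.04 to 0.07 and lay within the range of the 12 other chromosomes. A linear model of the 10 chromosome medians put MA-A4 at -0.28 ± 0.02 (SE, 10 arrays, 4 of them with MA-A4).

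**Figure D2:**
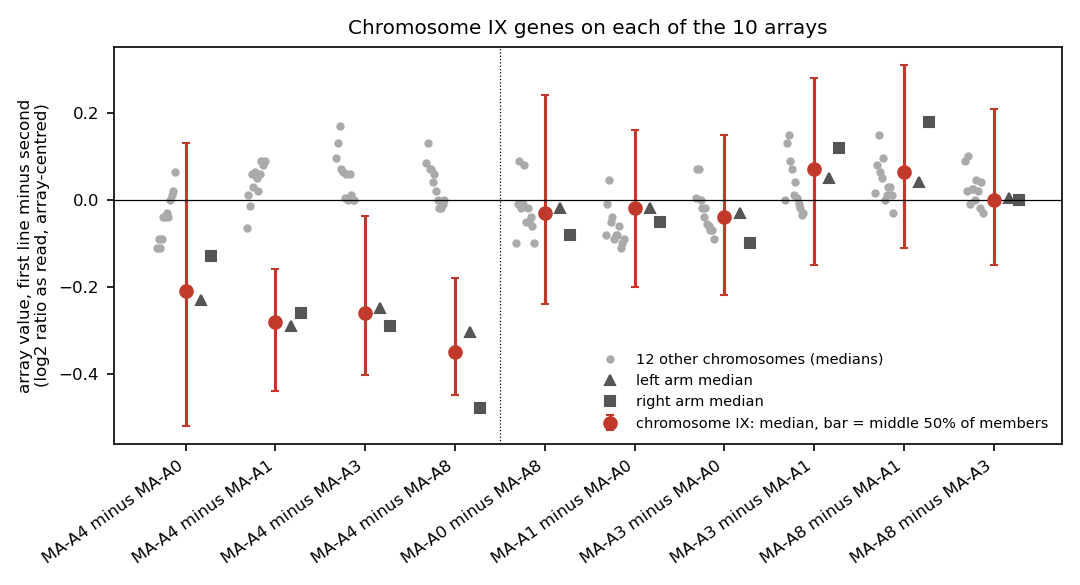
Median over chromosome IX genes on each array (red, with the middle 50% of genes as a bar), the left and right arm medians (triangles, squares) and the medians of 12 other chromosomes (grey); the vertical axis is the first-named line minus the second on the log2 scale as read, centred by array. The 4 arrays with MA-A4, left of the dotted line, have medians between -0.35 and -0.21, and the other 6 lie between -0.04 and 0.07.

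Single genes followed the chromosome unevenly, and 1 array was looser than the rest. Genes below 0 numbered 135 of 145 on the array with MA-A1 (93.1%) and 139 of 145 on that with MA-A8 (95.9%). They numbered 113 of 144 on the array with MA-A3 (78.5%) and 96 of 141 on that with MA-A0 (68.1%). The array with MA-A0 had the widest middle 50% of chromosome IX genes among these 4, -0.52 to 0.13. Without it, 143 of the 145 genes lay below 0 in MA-A4 and the median was -0.293, against 45% of all other genes below 0. The 2 genes at or above 0 were then CSS1 and PRM5. Of the 140 genes with a value on all 4 arrays, 66 (47.1%) were below 0 on every one, against 6.57% of all genes with 4 values, and none was above 0 on every one, against 8.22%. These shares repeat what the chromosome was chosen for.

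The low level was that of MA-A4 against each partner rather than against any one of them. In the fitted differences the chromosome IX median was -0.258 against MA-A0, -0.224 against MA-A1, -0.258 against MA-A3 and -0.28 against MA-A8, where the model of array medians has an SE of 0.03. Among the other 4 lines the medians of the 6 pairs ran from -0.044 to 0.012. By gene, 25 of 145 (17.2%) passed as lower in MA-A4 and none as higher, in limma's moderated test of MA-A4 against the mean of the other 4 lines with p-values adjusted over all genes. Over all genes 1.87% passed as lower and 1.72% as higher. These counts come from the contrast that chose the chromosome. At an unadjusted p under 0.05 there were 81 chromosome IX genes. That count, and those below with an array or the centring left out, are given without their shares over all genes. Whether the rest of the table moved with them is therefore not shown. The count of 25 rested on single arrays: it was 2 without MA-A1 against MA-A4 and 7 without MA-A4 against MA-A3 or without MA-A4 against MA-A8. It was 11 without MA-A0 against MA-A4, between 12 and 16 without MA-A8 against MA-A1, either array of MA-A3 with MA-A0 or MA-A1, or MA-A1 against MA-A0, and 0 with the arrays not centred.

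Both arms carried the level. The median in MA-A4 was -0.2387 over the 120 genes of the left arm, with 108 below 0, and -0.265 over the 25 of the right arm, with 23 below 0. The model of array medians gave -0.27 ± 0.02 for the left arm and -0.29 ± 0.05 for the right arm (SE, 10 arrays). The difference, left minus right, was 0.0212 ± 0.0343 in MA-A4 in the model of the arrays' arm differences, a difference smaller than its standard error. On single arrays the arms kept no fixed order: against MA-A0, MA-A1, MA-A3 and MA-A8 the medians were -0.23, -0.29, -0.25 and -0.305 on the left arm, and -0.13, -0.26, -0.29 and -0.48 on the right arm. Strand made little difference, with a median of -0.2387 over 64 genes on the Watson strand and -0.25 over 81 on the Crick strand.

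In bins of 15 neighbouring tested genes, the medians in MA-A4 were all below 0. From the left end they were -0.195, -0.317, -0.2175, -0.1875, -0.2975, -0.235, -0.2675 and -0.29 on the left arm, and -0.245 and -0.365 on the right arm, the last bin holding 10 genes. No bin reached the level of the other chromosomes in this line. The shallowest bins were those from NUP159, a nucleoporin gene, to BMT5, an rRNA methyltransferase gene, and from the left end to UBP7, a ubiquitin protease gene. Adjacent genes resembled each other weakly in MA-A4, with a Pearson r of 0.114 over 144 neighbouring pairs, and more in MA-A1, 0.326, and MA-A0, 0.261. These are descriptions across genes, which share arrays and in part neighbouring positions in the probe table.

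**Figure D3:**
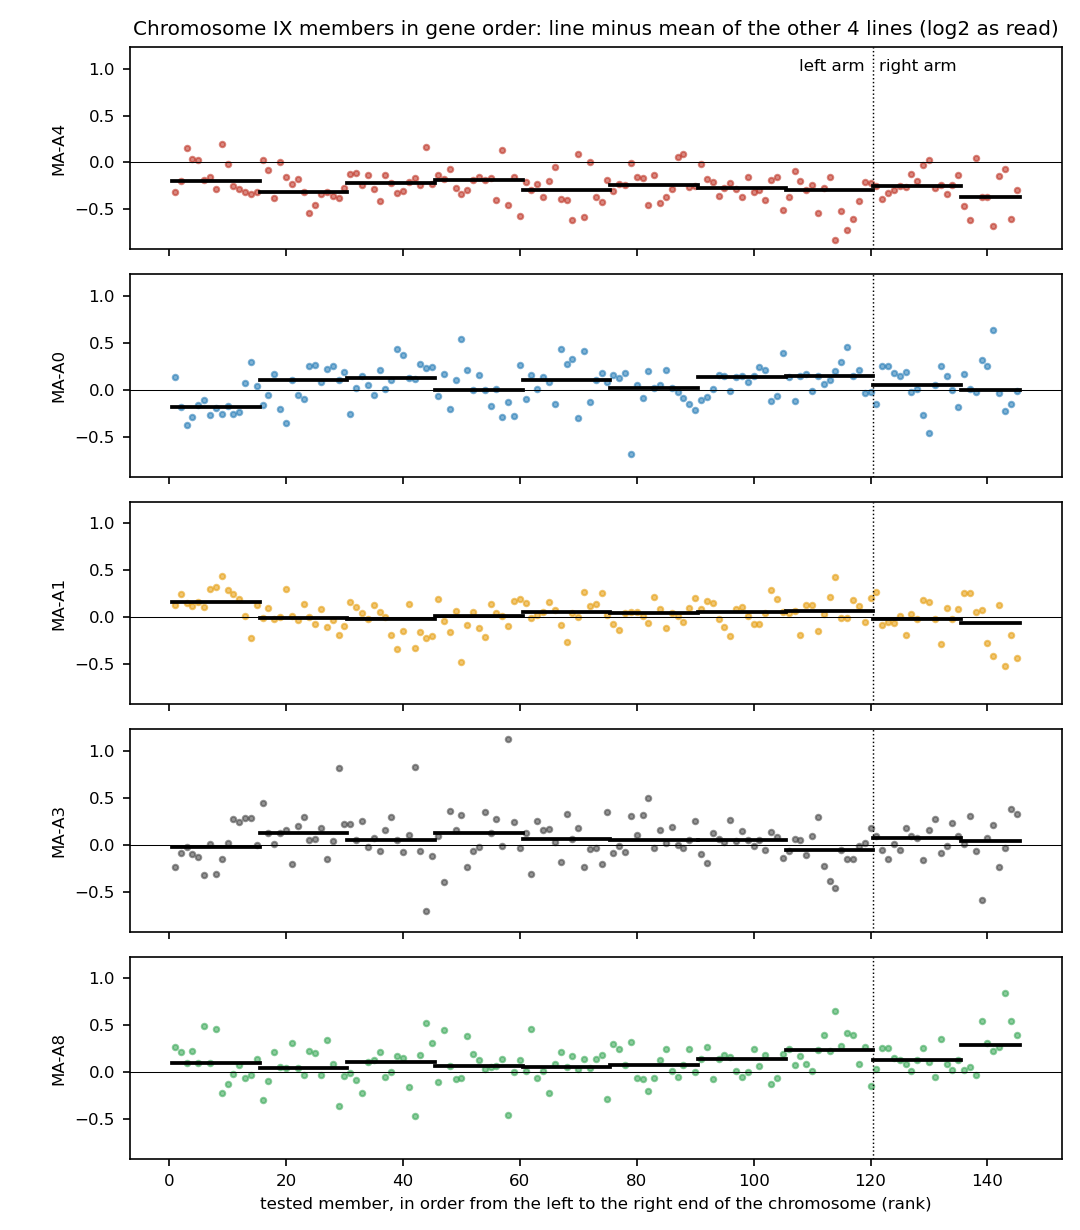
Estimate of each of the 145 tested genes (points) in gene order from the left to the right end (horizontal axis, rank), in a panel for each line; the vertical axis is the line minus the mean of the other 4 lines on the log2 scale as read, and black bars are medians of bins of 15 genes, 10 in the last. The bars in MA-A4 lie between -0.365 and -0.1875, and in MA-A0 and MA-A1 the bin at the left end departs from the rest of the arm.

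The left end behaved unlike the rest in several lines. The 9 outermost tested genes, YIL177C to CSS1, were grouped after their values were seen. They include YIL177C, a Y' element helicase-like gene, PAU14 of the seripauperin family, the vacuolar sorting homologue VTH1, the isomaltase IMA3 and HXT12, a member of the hexose transporter family. Their median was -0.1555 in MA-A4, with 5 of 9 below 0, against -0.245 over the other 111 genes of the left arm, with 103 below 0. In MA-A0 they had a median of -0.195, against 0.1025 over the rest of the arm. In MA-A1 the values were 0.165 and 0.045, in MA-A3 -0.125 and 0.0575, and in MA-A8 0.215 and 0.075. Without the array MA-A0 against MA-A4, 8 of the 9 lay below 0 in MA-A4, with a median of -0.156 against -0.298. Several of these genes have near-identical copies near other chromosome ends, and a spotted probe may hybridise with all of them, so their values are uncertain as measures of this chromosome.

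The genes with the lowest estimates in MA-A4, TIR3 and EST3, stood close together at the inner end of the left arm. The next lowest, GTT1, DCG1 and KTR7, lay elsewhere on the chromosome, at -0.68, -0.62 and -0.61. TIR3, which encodes a cell wall mannoprotein made with little oxygen, was at -0.51, -1.62, -0.34 and -0.83 against MA-A0, MA-A1, MA-A3 and MA-A8, an estimate of -0.83 ± 0.16 (SE). EST3, a subunit of telomerase, was at -1.03, -0.54, -0.41 and -0.88, an estimate of -0.72 ± 0.10. Named here for their position, the tested genes next to TIR3 and EST3 were PDR11, DOT5 and NAS2. PDR11, on the outer side of TIR3, was at 0.16, -0.39, 0.02 and -0.41 against MA-A0, MA-A1, MA-A3 and MA-A8. Its estimate of -0.16 ± 0.10 lay above the chromosome IX median in MA-A4 and did not pass. DOT5, a thiol peroxidase, was at -0.52 ± 0.13, and NAS2, a chaperone of proteasome assembly, at -0.60 ± 0.11. TIR3, DOT5, EST3 and NAS2 were below 0 on every array with MA-A4, and all 4 passed as lower in MA-A4. DOT5, EST3 and NAS2 were printed on consecutive probe rows and TIR3 was not, and the part of that position in their values was not tested. In MA-A8 the same 4 genes had estimates of 0.66, 0.28, 0.42 and 0.40 for TIR3, DOT5, EST3 and NAS2, above that line's chromosome IX median.

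On the rest of the left arm the lowest was KTR7, a putative mannosyltransferase, with -0.73, -0.38, -0.59 and -0.73 against MA-A0, MA-A1, MA-A3 and MA-A8 and an estimate of -0.61 ± 0.10. On the right arm the lowest was GTT1, a glutathione transferase, with -1.34, -0.24, -0.49 and -0.64 and an estimate of -0.68 ± 0.11. All 4 values were negative for both, and GTT1 was lowest by far against MA-A0. YIR043C had an estimate of -0.60 ± 0.19 and its arrays disagreed, with 0.54 against MA-A0 and -0.57, -1.36 and -1.0 against MA-A1, MA-A3 and MA-A8.

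The highest estimates in MA-A4 were those of CSS1, at 0.19 ± 0.11 with no value on the array with MA-A0, and PRM5, a membrane protein gene induced by pheromone and by cell wall stress, at 0.16 ± 0.11. PRM5 was at -0.07, 0.28, 0.47 and -0.03 against MA-A0, MA-A1, MA-A3 and MA-A8. The other genes at the upper end by the naming rule, which takes each arm apart, were near 0 or above it through 1 array. FLO11, with an estimate of 0.02 ± 0.12, was at 0.83 against MA-A0 and at -0.05, -0.42 and -0.27 against MA-A1, MA-A3 and MA-A8. YAP5, an iron-responsive transcription factor, was at 0.92 there and at -0.44, -0.02 and -0.56 on the others, an estimate of -0.025. SDS3, a subunit of a histone deacetylase complex, was at 0.87 there and at -0.13, -0.40 and 0.01, an estimate of 0.0875, and YIL175W was at 0.95 there and at -0.10, -0.11 and -0.14, an estimate of 0.15. In each of these 4 genes the single high value lay on 1 array and the other 3 were negative or near 0. DAL3, the ureidoglycolate lyase of allantoin breakdown, was at -0.01, -0.53, 1.05 and -0.32, so its estimate of 0.05 ± 0.18 rested on the array with MA-A3.

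The first and last tested genes of each arm had estimates below 0 in MA-A4. Single genes cannot mark how far the low level reaches, and YIL177C is among the outermost genes under the caution on copies above. For YIR044C, at the right end, hybridisation with copies elsewhere was not tested. At the outer ends YIL177C had an estimate of -0.31 ± 0.10 and YIR044C of -0.29 ± 0.10 in MA-A4. At the inner ends YIL001W had -0.22 ± 0.11, and MPH1, a DNA helicase gene, had 0.45, -0.44, -0.44 and -0.57 on its arrays against MA-A0, MA-A1, MA-A3 and MA-A8. None of these 4 passed as lower in MA-A4. The 3 genes that varied least around the model were AGE2, a GTPase-activating protein of vesicle transport, VHR1, a regulator of biotin genes, and PAU15 of the seripauperin family. Their estimates in MA-A4 were -0.27, -0.26 and -0.14.

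The other lines lay close to one another, and their order depended on the centring. With arrays centred on genes outside chromosomes IX, XI, XII and XIII the medians were 0.0513 in MA-A0, 0.09 in MA-A1, 0.07 in MA-A3 and 0.0837 in MA-A8, and without centring MA-A0 was highest, at 0.34. With the centring used here MA-A8 was highest. In MA-A8, 107 of 145 genes lay above 0, with a median of 0.0975, and the model of array medians gave 0.11 ± 0.02 (SE). The left arm lay lower than the right, at 0.0887 with 84 of 120 genes above 0, against 0.135 with 23 of 25. The left arm minus the right arm was -0.0925 ± 0.0343 in the model of the arrays' arm differences. The last bin of the right arm, from YVH1 to YIR044C, had a median of 0.29. Its outermost genes, PAU15, YIR042C, YIR043C and YIR044C, were at 0.27, 0.85, 0.54 and 0.40. Whether probes at this end hybridise with copies near other chromosome ends was not tested. By construction part of each positive value in MA-A8 is the low level of MA-A4. The median over chromosome IX genes of MA-A8 minus MA-A1 was 0.065 and of MA-A8 minus MA-A3 was 0, with MA-A0 minus MA-A8 at -0.03. Of 145 genes, 11 passed as higher in MA-A8 and 2 as lower, against 1.31% and 2.01% of all genes. In MA-A0, 2 passed as higher, COX5B and GTT1, and none as lower, against 0.222% and 0.111%. In MA-A1, 1 passed as higher, CSS1, and 3 as lower, COX5B, GTT1 and YIR044C, against 1.85% and 1.96%. In MA-A3, 12 passed as higher and 7 as lower, against 10.8% and 6.19%. By the F test among all 5 lines 37 of 145 (25.5%) differed, against 18.7% of all genes. These values still hold the chromosome's own level.

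To ask which genes differed among the lines beyond the chromosome as a whole, the median of a gene's own chromosome was taken off each array before the fit. A level shared by the chromosome is then removed. In limma's moderated F test on these values, 18 of 145 genes (12.4%) differed among the 5 lines, against 10% of all 5415 genes. At an unadjusted p under 0.05 in this test, 46 of the 145 did, and 1379 of the 5415. The share that passed on chromosome IX was thus near that of the table. The median range between the highest and lowest line was 0.74 among those that passed. The 18 include 5 of the 9 outermost genes of the left end, with the caution on copies given above. The count was 9 with the array of MA-A8 and MA-A3 left out and 40 with that of MA-A0 and MA-A8 left out. Over all genes the counts in these settings were 353 and 1116, against 542 with all arrays, so the whole table moved in the same direction. Values in the paragraphs on these genes are relative to chromosome IX.

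The widest departures from the chromosome were in MA-A3. XBP1, a stress-induced transcriptional repressor, was higher in MA-A3 by 0.81 against MA-A0, 0.81 against MA-A1 and 1.43 against MA-A8, with no value against MA-A4. All 3 arrays agreed in direction. Its estimate was 1.05 ± 0.13 in MA-A3 (adjusted p = 0.000197) and -0.57 ± 0.10 in MA-A8 (adjusted p = 0.0148), from 9 arrays. RPI1, a transcriptional regulator first described as an inhibitor of Ras signalling, was higher in MA-A3 by 0.77, 0.80, 0.51 and 0.96 against MA-A0, MA-A1, MA-A4 and MA-A8. Its estimate was 0.76 ± 0.09 in MA-A3 (adjusted p = 0.000166) and -0.57 ± 0.09 in MA-A8 (adjusted p = 0.00745). OM45, a protein of the mitochondrial outer membrane, was at 0.87, 0.69, 0.16 and 1.28 in MA-A3, an estimate of 0.75 ± 0.13 (adjusted p = 0.00226). MA-A3 was above its partner for these 3 genes on every array that gave a value.

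PRM5 ran the opposite way. In MA-A3 it was at -0.59, -0.41, -0.73 and -1.36 against MA-A0, MA-A1, MA-A4 and MA-A8, an estimate of -0.77 ± 0.12 (adjusted p = 0.000637). In MA-A4 its estimate was 0.44 ± 0.12, which did not pass (adjusted p = 0.0657). Its F test gave an adjusted p of 0.00247, and it lost that call in 1 of 21 alternative settings, as did RPI1 and TIR3, with XBP1 losing it in 1 of 20. That setting was the F test without moderation, in which no gene passed the adjusted threshold.

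LYS1 and LYS12, of lysine synthesis, were lower in MA-A3. LYS1, saccharopine dehydrogenase of the final step of lysine synthesis, was at -0.91, -0.30, -0.41 and -1.01 in MA-A3 against MA-A0, MA-A1, MA-A4 and MA-A8. Its estimate was -0.66 ± 0.11 (adjusted p = 0.00132), and 0.44 ± 0.11 in MA-A8, which missed the threshold (adjusted p = 0.0506). LYS12, homoisocitrate dehydrogenase of the same pathway, was at -0.16, -0.21, -0.50 and -0.67 in MA-A3 with an estimate of -0.39 ± 0.09 (adjusted p = 0.0133). The 4 arrays agreed in direction for each of them. Lower in MA-A3 too were POR2, a second mitochondrial porin, at -0.47 ± 0.10, IMA3 at -0.39 ± 0.10 and HXT12 at -0.38 ± 0.10, each below 0 on all 4 arrays with MA-A3. These calls were less firm: of 21 settings the F call was lost in 9 for POR2, 10 for IMA3, 10 for LYS12 and 5 for HXT12, with adjusted p-values up to 0.21, 0.263, 0.201 and 0.202. In all, 4 genes passed as higher in MA-A3 and 8 as lower, against 4.23% and 4.93% of all genes. They include MAM33, a mitochondrial matrix protein, at 0.43, and PDR11, a sterol transporter, at -0.46, neither of which passed the F test among all lines.

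TIR3 was low in both MA-A3 and MA-A4 relative to the chromosome and high in MA-A8. In MA-A4 it was at -0.30, -1.34, -0.08 and -0.48 against MA-A0, MA-A1, MA-A3 and MA-A8, an estimate of -0.55 ± 0.15 that did not pass (adjusted p = 0.086). In MA-A3 it was at -0.54 ± 0.15, which passed (adjusted p = 0.0444), and in MA-A8 at 0.54 ± 0.15, which did not (adjusted p = 0.0809). Its adjusted p in the F test was 0.015. The estimate in MA-A4 rested in large part on the array with MA-A1, and was -0.28 without it.

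Few genes stood apart from the chromosome in MA-A4 itself. EST3 was the single gene that passed as lower, against 1.22% of all genes, with -0.82, -0.26, -0.15 and -0.53 against MA-A0, MA-A1, MA-A3 and MA-A8, an estimate of -0.44 ± 0.11 (adjusted p = 0.0454). Its F test gave an adjusted p of 0.0167 and lost the call in 5 of 21 settings. Its own call in MA-A4 was lost in 11 of 21, with an adjusted p of 0.264 without the array of MA-A0 and MA-A4, where YIR043C passed as lower instead at -0.68 (adjusted p = 0.0481). CSS1 was the single gene that passed as higher, against 1.39% of all genes, at 0.49 ± 0.11 (adjusted p = 0.0353); the array of MA-A0 and MA-A4 gave it no value, and it was named after its values were seen. Its call was lost in 10 of 20 settings. On its 3 arrays with MA-A4 it was at 0.12, 0.45 and 0.70 against MA-A1, MA-A3 and MA-A8. Of the 25 genes that passed as lower in MA-A4 before the chromosome's level was removed, EST3, TIR3 and GTT1 were among the 18, and EST3 alone of them passed in MA-A4 after it.

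Other genes varied in the other lines. COX5B, the form of a cytochrome c oxidase subunit made with little oxygen, was at -0.77, -0.52, -0.28 and -0.465 in MA-A1 against MA-A0, MA-A3, MA-A4 and MA-A8, an estimate of -0.51 ± 0.11 (adjusted p = 0.0464). It was the single gene lower in MA-A1, and none was higher, against 0.499% and 0.425% of all genes. GTT1 was at -0.40 ± 0.11 in MA-A4, -0.44 ± 0.11 in MA-A1 and 0.58 ± 0.11 in MA-A0, with an adjusted p of 0.00549 in the F test and no single line passing. No gene passed in MA-A0 in either direction, against 0.0739% of all genes as higher and 0.0369% as lower. YIR042C, which has no known role, was at 0.33, 1.385, 0.88 and 0.35 in MA-A8 against MA-A0, MA-A1, MA-A3 and MA-A4, an estimate of 0.74 ± 0.14 (adjusted p = 0.0153). It was the single gene higher in MA-A8, with XBP1 and RPI1 lower, against 1.13% and 1.51% of all genes. YIR044C was at -0.46 ± 0.10 in MA-A1 and YIL175W at 0.43 ± 0.11 in MA-A4 and -0.44 ± 0.11 in MA-A0, none of which passed in that line. YIL174W had the smallest range of the 18, 0.52. YIL175W and YIL174W lost the F test in 13 and 14 of 21 settings. When the array that paired MA-A0 with MA-A8 was reversed in sign, 13 genes passed, 10 of them among the 18, beside 572 over all genes. In that setting 8 named genes lost the call. Among these, GTT1 was at 0.30 in MA-A0, and its adjusted p in the F test was 0.0735. The adjusted p in the same test was 0.124 for YIR042C, 0.121 for COX5B, 0.0936 for OM45, 0.263 for IMA3 and 0.202 for HXT12.

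**Figure D4:**
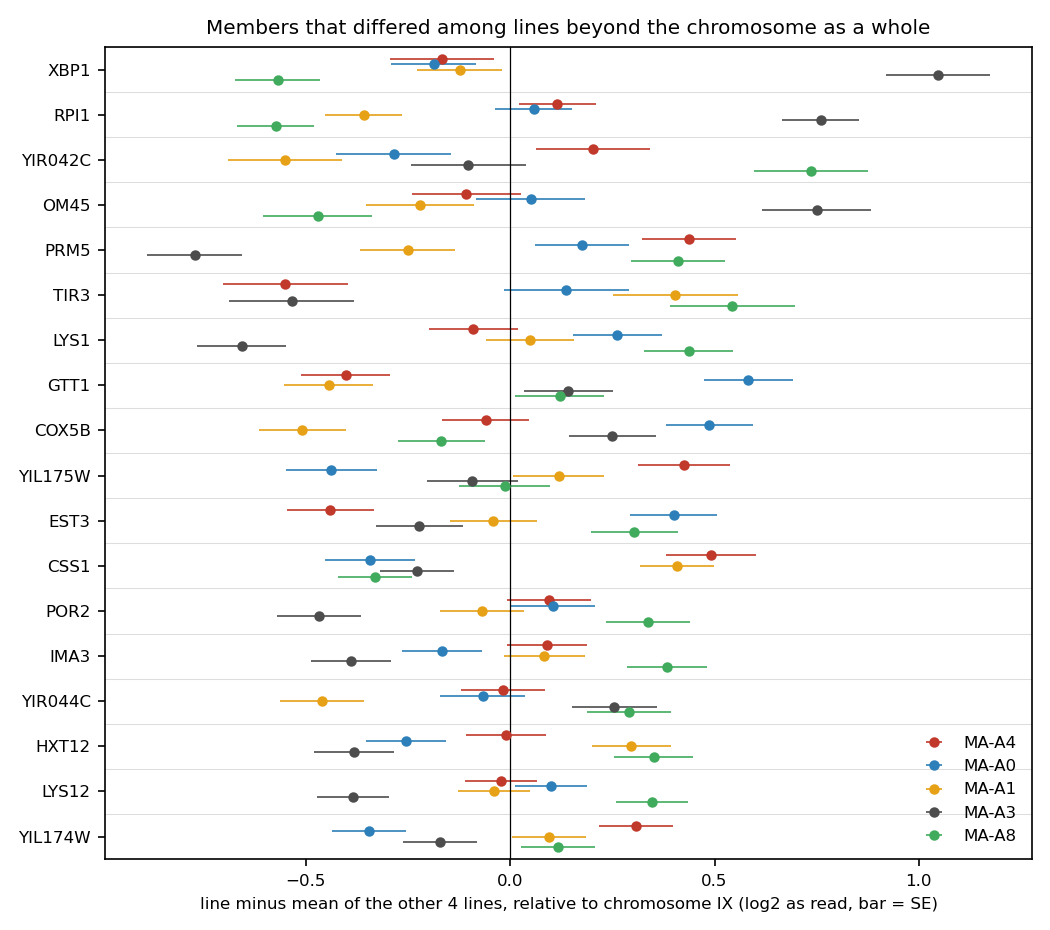
The 18 chromosome IX genes that differed among lines beyond the chromosome as a whole, ordered by range, with the estimate of each line and its SE; the horizontal axis is the line minus the mean of the other 4 lines relative to chromosome IX, on the log2 scale as read. XBP1, RPI1 and OM45 are highest in MA-A3, at 1.05, 0.76 and 0.75, and PRM5 and LYS1 lowest there, at -0.77 and -0.66.

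By role, the level in MA-A4 was spread over unrelated groups of genes; estimates from here on again include the chromosome's own level. The 12 lists used were drawn from textbook roles with earlier results of these arrays known. All 12 had a median below 0 in MA-A4, from -0.42 over 4 genes of redox and lipid metabolism to -0.155 over 10 genes of chromosome structure and cell division, beside -0.245 over all 145 genes. In 8 lists every tested gene lay below 0, where 90.3% of all 145 genes did. The lists were drawn from a chromosome chosen for its level, so these medians and counts repeat that choice. The counts by list below set the genes that passed in the fit relative to the chromosome beside those that passed as lower in MA-A4 without that step. Of the chromosome IX genes 12.4% passed in the former, against 10% of all genes. As lower in MA-A4, 17.2% passed, against 1.87% of all genes. The lists hold few genes, so their counts do not set a role apart from the chromosome.

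Of the 7 genes of allantoin use on the chromosome, 3 were tested, since DAL1, DAL2, DAL4 and DAL7 had empty probe rows. DCG1, a gene of unknown function under nitrogen control, was at -0.14, -0.62, -0.92 and -0.79 in MA-A4 against MA-A0, MA-A1, MA-A3 and MA-A8, an estimate of -0.62 ± 0.13. DAL81, an activator of nitrogen-source genes, had -0.34 ± 0.10 and DAL3 the 0.05 given above. None of the 3 differed relative to the chromosome. The 8 tested genes of the pathway and its control on other chromosomes, such as the urea transporter DUR3 and the regulators GLN3, GAT1 and URE2, had a median of 0.05 in MA-A4, and none of them passed the F test before or after the chromosome's level was removed.

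In the amino acid list 6 of 7 genes were tested, with a median of -0.29 in MA-A4, and LYS1 and LYS12 passed relative to the chromosome. THS1, the threonyl-tRNA synthetase, was at -0.53, -0.81, 0.07 and -0.42 in MA-A4, an estimate of -0.42 ± 0.10, and passed as lower before that step alone. In the list of sugars, glycerol and storage 5 of 8 were tested, with a median of -0.185, and IMA3 and HXT12 passed relative to the chromosome. GUT2, the mitochondrial glycerol-3-phosphate dehydrogenase, had its highest estimate in MA-A3, 0.44 ± 0.13 without the chromosome step, and its adjusted p in the F test relative to the chromosome was 0.0572.

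Of the cell surface genes 8 of 11 were tested, with a median of -0.25 in MA-A4. TIR3 and PRM5 passed relative to the chromosome, and TIR3, KTR7 and the bud-site protein AXL2 passed as lower in MA-A4. AXL2 was at -0.98, -0.57, 0.24 and -0.52 against MA-A0, MA-A1, MA-A3 and MA-A8, so 1 of its 4 arrays went the other way. Of the mitochondrial genes 10 of 14 were tested, all below 0 in MA-A4 with a median of -0.24, and COX5B, POR2 and OM45 passed relative to the chromosome. This list had a median of 0.28 in MA-A3. MAM33 was at -0.79, -0.60, -0.28 and -0.13 in MA-A4 and passed as lower, with KGD1, a subunit of alpha-ketoglutarate dehydrogenase, at -0.37, -0.07, -0.36 and -0.07 and not passing.

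Protein folding, turnover and secretion had 13 of 15 genes tested, all below 0 in MA-A4 with a median of -0.31. None passed relative to the chromosome, and 4 passed as lower in MA-A4. These were CCT2, a subunit of the cytosolic chaperonin, SNL1, a chaperone cofactor, NAS2 and ULP2, a SUMO protease. SNL1 was at -0.54, -0.44, -0.55 and -0.63 against MA-A0, MA-A1, MA-A3 and MA-A8, with little spread between arrays. CCT2 was at -1.0, -0.45, -0.12 and -0.60.

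Of the genes of chromosome structure and cell division 10 of 16 were tested, all below 0 in MA-A4, and EST3 alone passed, both as lower in MA-A4 and relative to the chromosome. NDC80, a kinetochore subunit, had -0.18 ± 0.11 in MA-A4, STH1, the ATPase of the RSC remodeller, -0.14 ± 0.09 and HOP1, a protein of the meiotic chromosome axis, -0.16 ± 0.10. Transcription and RNA, with 8 of 12 tested, had a median of -0.22 and signalling, with 8 of 9, one of -0.21. Neither list had a gene that passed relative to the chromosome. Each had 1 that passed as lower in MA-A4, UTP25 of ribosome assembly at -0.37 ± 0.09 and the phosphatase YVH1 at -0.46 ± 0.12. BCY1, the regulatory subunit of protein kinase A, had -0.29 ± 0.12 and CKA1, a catalytic subunit of casein kinase 2, -0.15 ± 0.11.

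The transcription factors had 8 of 11 tested, all below 0 in MA-A4 with a median of -0.20. XBP1 and RPI1 passed relative to the chromosome, and none passed as lower in MA-A4. XBP1 was at -0.45 ± 0.13 in MA-A4 and RPI1 at -0.16 ± 0.10. On the arrays, XBP1 in MA-A4 was at 0.02, 0.02 and -0.41 against MA-A0, MA-A1 and MA-A8, with no value against MA-A3. The estimates of XBP1 and RPI1 in MA-A3, 1.13 and 0.83, lower those of the other lines by construction. In redox and lipid metabolism 4 of 8 were tested, GTT1 and DOT5 passed as lower in MA-A4, and GTT1 passed relative to the chromosome. Of 3 drug and sterol transporters 2 were tested, with -0.21 ± 0.13 for QDR1 and -0.16 ± 0.10 for PDR11 in MA-A4.

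**Figure D5:**
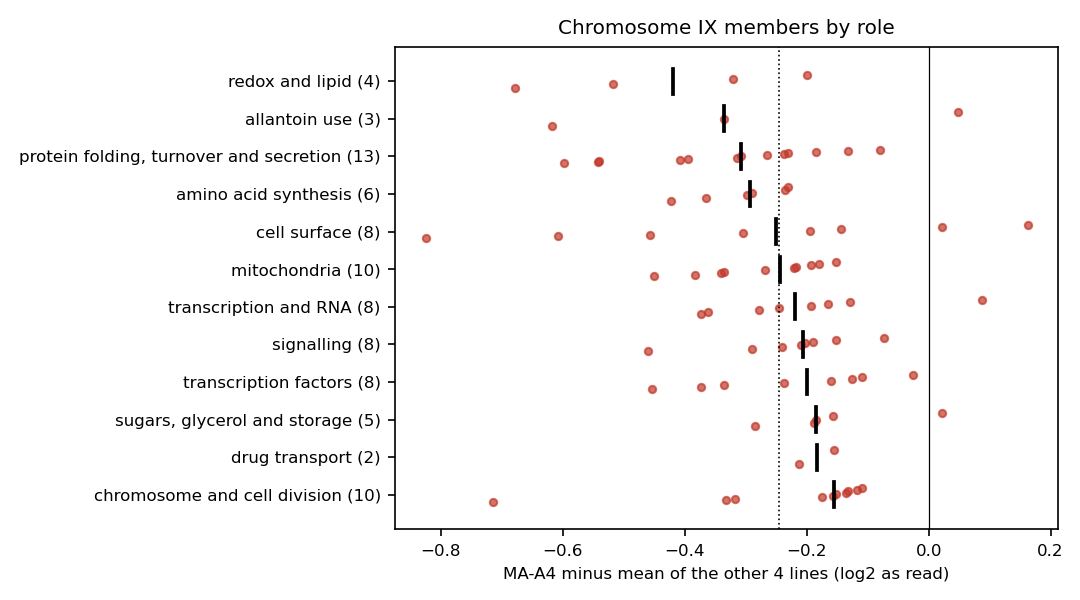
Estimates in MA-A4 (horizontal axis, MA-A4 minus the mean of the other 4 lines, log2 as read) of tested chromosome IX genes by role, with the number tested after each name; bars are list medians and the dotted line is the chromosome IX median of -0.245. List medians run from -0.42 for redox and lipid to -0.155 for chromosome and cell division, and every one is below 0.

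NUP159 was printed on 33 probe rows, which gave its spread within an array. In MA-A4 its mean over 29 or 30 rows with a value was 0.168 against MA-A0, -0.265 against MA-A1, -0.363 against MA-A3 and -0.056 against MA-A8. The SD over rows was 0.227, 0.121, 0.117 and 0.122 on these arrays. The spread over rows was widest on the array with MA-A0. These rows share 1 RNA pair and are not replicates.

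Chromosome IX was the nuclear chromosome with the lowest share of its genes measured. Of its 206 named genes 149 (72.3%) were tested, against 89.8% to 100% on the others. Of the 54 of the 199 genes that were not tested, 53 were empty on all arrays and 1 had a value on a single array, with 38 on the left arm and 16 on the right. SUC2 and the subunit genes RPB3 of RNA polymerase II and RNR3 of ribonucleotide reductase are among those not tested. Members were spread over 12 of 16 blocks of the probe table, and in each of the 12 their median in MA-A4 lay below that of the other genes of the block.

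The arrays gave values for 6282 to 6824 of 7744 probe rows, with medians before centring from -0.84 to 0.41. Other chromosomes with a shifted median were XIII in MA-A3 at 0.555, XII in MA-A1 at 0.25 and XI in MA-A1 at 0.115.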

How the data were processed

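Per the labels, 10 dual-colour arrays were made from total RNA with dendrimer labelling. The deposited values, 1 for a probe row on an array, from -5.54 to 4.17, were read as log2 ratios. How the authors scanned, background-corrected or normalized them, and the logarithm's base, is not given in the sources. Gene IDs named 6111 of 6116 annotated rows through the R64 annotation, used for symbols and order only since the table names no build. Arrays were centred on their median over all probe rows, rows of a gene averaged, and genes with at least 8 values kept. A model of Cy5 line minus Cy3 line with a dye effect (5 residual degrees of freedom) was fitted to 5415 genes with limma 3.58.1 (R 4.3.3, statmod 1.5.0). Prior degrees of freedom were 9.19, and 8.51 with each chromosome's median removed. P-values were adjusted over all genes by Benjamini-Hochberg, passing at 0.05. The fit was tested on simulated data.

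The chromosome, lists and naming rule were chosen with earlier results of these data known. Named are up to 20 genes by range relative to the chromosome, 3 highest and 3 lowest per arm in MA-A4, each arm's first and last, allantoin genes, up to 3 per other list by smallest p, and the 3 least variable; genes outside this rule were chosen after their values were seen. Members were matched for 197 of 199 genes. No table column was left unused. Alternatives changed centring, dye term, prior, filter, the sign of 1 array, the members and each array in turn.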

Additional observations from a re-analysis of the deposited data

How the results depend on the processing

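MA-A4 had the chromosome IX median farthest from 0 under every alternative tried, but without centring MA-A0 lay almost as far from 0. With values as deposited, without centring, the median was -0.3425 in MA-A4 and 0.34 in MA-A0. It was -0.07 in MA-A1 and 0.0425 in MA-A8. In that setting 0 chromosome IX genes passed limma's test in MA-A4, with 27 at an unadjusted p under 0.05. Centred within 16 blocks of probe rows, 39 passed there. Without a dye term 7 passed there and 10 genes differed relative to the chromosome, beside 272 over all genes. With an ordinary F test without moderation 0 genes differed relative to the chromosome, and 37 chromosome IX genes did at an unadjusted p under 0.05. Counts in MA-A4 in this paragraph, and those at an unadjusted p, are given without the share over all genes. Centred on the 50 nearest probe rows, chosen after seeing the data, the median was 0.0238 in MA-A0 and 0.10 in MA-A1. Leaving out 1 array at a time gave medians from -0.293 to -0.2225 in MA-A4 and from -0.003 to 0.0625 in MA-A1. It gave 9 to 40 genes relative to the chromosome, beside 313 to 1116 over all genes. The array left out was that of MA-A8 and MA-A3 for 9, of MA-A1 and MA-A0 for 10, of MA-A1 with either MA-A4 or MA-A3 for 11, and of MA-A0 and MA-A8 for 40. It gave 2 to 35 genes as lower in MA-A4, the highest with that of MA-A0 and MA-A8 left out. Of the 17 named genes that passed relative to the chromosome, up to 9 lost the call in a setting that kept moderation, all 17 did without it, and none changed sign. The causes were not tested. Each array set 1 line directly against another, and the model used that pairing. The labels give no replicate numbers and each pair of lines shared 1 array, so no pair was repeated. Depth has no meaning for these ratios, and signal over background was not in the table.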
